A study of Elaeis guineensis with 9 samples.

Results

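The 89 most abundant messenger RNAs of oil palm leaves held between 25.2% and 29.3% of all transcript abundance in each of 9 libraries. None of them passed the test for a difference between populations or between yield classes. Of all 30576 transcript rows tested, only 0.327% passed for any population difference and 0% for yield class, so a count of 0 is near the background. The 89 were chosen by their mean level in the same libraries. They are predicted mRNA rows (RefSeq accessions beginning with XM) with a mean of at least 1000 TPM over the 9 libraries. There were 89 such rows among 43433 predicted mRNA rows and 51490 transcript rows in all. TPM is a length-corrected measure of transcript abundance, scaled so that each library totals 1000000.

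The leaves came from African oil palm, Elaeis guineensis, of the Tenera form, the thin-shelled hybrid grown for oil. The labels state that all palms grew in 1 field, that their age was 7 years with yield recorded over 4 years, and that frond 17 was sampled. The populations were Deli x SP540, Deli x Yangambi and Deli x LaMe, named SP540, Yangambi and LaMe from here on, and within each population palms were sorted into low, medium or high oil yield. Each of the 9 combinations was 1 library, so each population and each yield class had 3 libraries. The labels do not state whether a library was 1 palm or a pool, nor whether libraries were prepared or sequenced in batches. The p-values therefore measure the spread between these libraries only, and a batch difference cannot be told apart from the groups. Sequencing depth is unknown, because TPM does not keep it.

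In plants the mRNA pool of a green leaf is usually uneven, with a small set of nuclear transcripts making up a large part of it. As background, the leading transcripts of leaves often encode the small subunit of the carbon-fixing enzyme Rubisco, the chlorophyll-binding proteins of the light-harvesting antennae, and small proteins such as metallothioneins. Libraries made with an mRNA kit, as these were, record mainly the polyadenylated transcripts of nuclear genes. Because TPM always sums to the same total, a rise of one very abundant transcript lowers the TPM of all others. The sources used here give no protein name for any of the 89 rows, so the rows are called by accession and, where known, by gene identifier, and no role is given to any of them.

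Of the 89 rows, 76 were paired with 74 genes of assembly EG11 in a RefSeq gene table, accession versions being ignored, and 13 were unpaired. None of those genes has a symbol other than an automatic LOC identifier. The leaf label could therefore not be checked with leaf markers among these rows. In the gene table, 10 genes with flower or embryo symbols (14 rows) summed to between 2.66 and 6.23 TPM per library. Their highest single row reached 1.08 to 6.23 TPM per library, and these low levels do not check the tissue. In 69 cases the abundant row was the only row of its gene, and 72 rows held at least 95% of their gene's TPM. Only 1 pair of genes stood near each other in gene order, LOC105042746 and LOC105042733, with 6 genes between them, at mean levels of 1766 and 1473 TPM (XM_010920051.3 and XM_010920034.2).

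The levels fell off steeply. Only 3 rows had a mean of at least 10000 TPM, 5 lay between 5000 and 10000 TPM, 31 between 2000 and 5000 TPM, and 50 between 1000 and 2000 TPM. The 15 leading rows carried 50% of the TPM of the whole set. In every library 68 rows stayed at or above 1000 TPM, while 21 dipped under it somewhere, and the lowest value of any of the 89 rows was 494 TPM (XM_010945645.2 in the low-yield Yangambi library). Just inside the limit of 1000 TPM were XM_010933045.2 with 1016 ± 180 TPM, XM_010937549.3 with 1011 ± 93.8 TPM and XM_010921730.3 with 1008 ± 69.5 TPM (SD, n = 9). Just outside were XM_029266740.1 with 996.0 TPM, XM_010914934.3 with 993.6 TPM and XM_010931921.2 with 993.2 TPM. Beside the 89 predicted mRNA rows, 6 predicted non-coding rows and 1 curated mRNA row also had a mean of at least 1000 TPM and were not part of the set.

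The share of library TPM held by the 89 rows was similar in all libraries, with a mean of 27.5% ± 1.15 (SD, n = 9). In SP540 it was 27.2%, 25.2% and 27.8% in the low-, medium- and high-yield libraries. Yangambi libraries had 28.0%, 27.3% and 27.3% in the same order, and LaMe libraries had 29.3%, 28.7% and 27.3%. The lowest value was that of the medium-yield SP540 library, the highest that of the low-yield LaMe library, and the populations overlapped. By population the means were 26.7% ± 1.37 in SP540, 27.5% ± 0.396 in Yangambi and 28.4% ± 1.03 in LaMe (SD, n = 3 each). A two-sided exact permutation test of population labels within yield classes gave p = 0.333 (adjusted p = 0.667 over 6 tests of library shares). Low-yield libraries averaged 28.1% ± 1.06, medium-yield libraries 27.1% ± 1.80 and high-yield libraries 27.5% ± 0.281, and the exact permutation p was 0.444 (adjusted p = 0.667). The design allows no p below 0.0278.

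**Figure D1:**
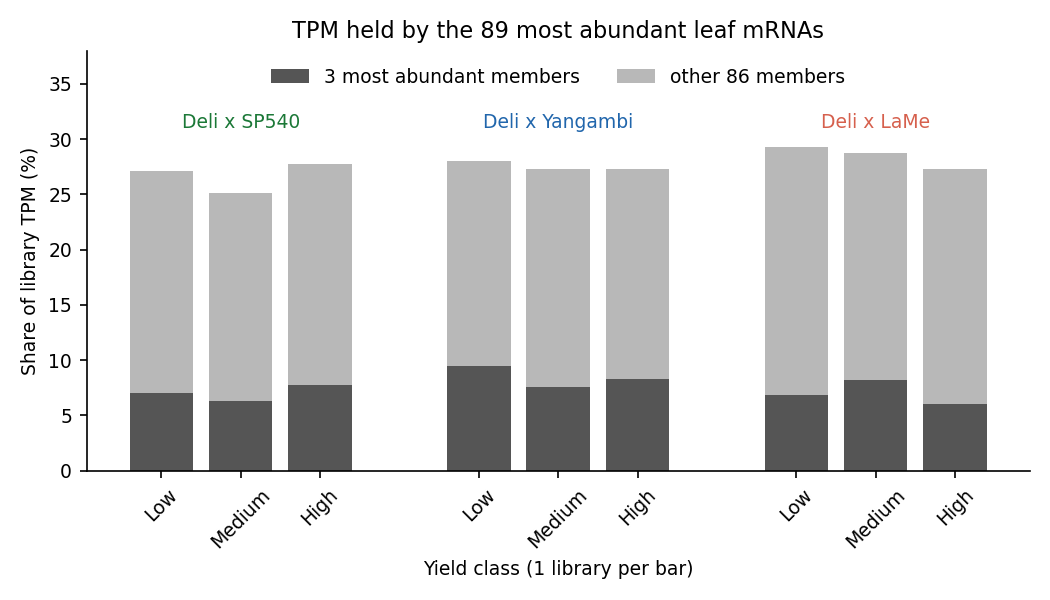
Share of library TPM (%) held by the 89 most abundant leaf mRNAs, 1 bar per library, grouped by population and ordered by yield class; the dark part is the share of the 3 leading rows and the light part that of the other 86. All bars end between 25.2% and 29.3%, and the light part is tallest in the low-yield LaMe library.

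Split by level, the 3 leading rows and the other 86 rows showed different orders of the populations. The 3 leading rows held 6.98% ± 0.725 of TPM in SP540, 8.40% ± 0.960 in Yangambi and 7.02% ± 1.10 in LaMe (exact permutation p = 0.389, adjusted p = 0.667). The other 86 rows held 19.7% ± 0.712 in SP540, 19.1% ± 0.610 in Yangambi and 21.4% ± 0.945 in LaMe (SD, n = 3 each). All 3 LaMe libraries, at 20.5% to 22.4%, were above all SP540 and Yangambi libraries, whose highest value was 20.2%. The exact permutation test gave p = 0.0556, and 0.333 after adjustment. With 6 tests and a smallest p of 0.0278, a single share could not pass after adjustment. Neither split separated the yield classes (exact permutation p = 0.861 for the leading 3 and 0.583 for the other 86, adjusted p = 0.861 and 0.700).

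The most abundant row on average was XM_010918066.2 (gene LOC105041203), with 28584 ± 2148 TPM (SD, n = 9). Within each population, with values in the order low, medium and high yield, it had 26151, 27329.9 and 29978 TPM in SP540, 30069, 32548 and 28412 TPM in Yangambi, and 27688, 29349 and 25728 TPM in LaMe. It varied little, with a coefficient of variation (CV, SD as a percentage of the mean) of 7.52%, and it was the leading one of the 89 rows in 6 of the 9 libraries. The row next in order, XM_010925610.2 (unpaired), led in the other 3 libraries and was far less steady: 22648, 17286 and 25715 TPM in SP540, 46866, 19833 and 33009 TPM in Yangambi, and 17008, 29595 and 16075 TPM in LaMe. Its highest value, in the low-yield Yangambi library, was 2.92 times its lowest, in the high-yield LaMe library, and its CV was 39.4%. The population means of this row were 21883 ± 4266 TPM in SP540, 33236 ± 13518 TPM in Yangambi and 20892 ± 7551 TPM in LaMe (SD, n = 3 each), with all groups overlapping. XM_010924937.3 (LOC105046370) came after these with 20928, 17966 and 21388 TPM in SP540, 17421, 22978 and 21012 TPM in Yangambi, and 23832, 23047 and 18406 TPM in LaMe, a mean of 20775 ± 2360.3 TPM and a CV of 11.4%.

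**Figure D2:**
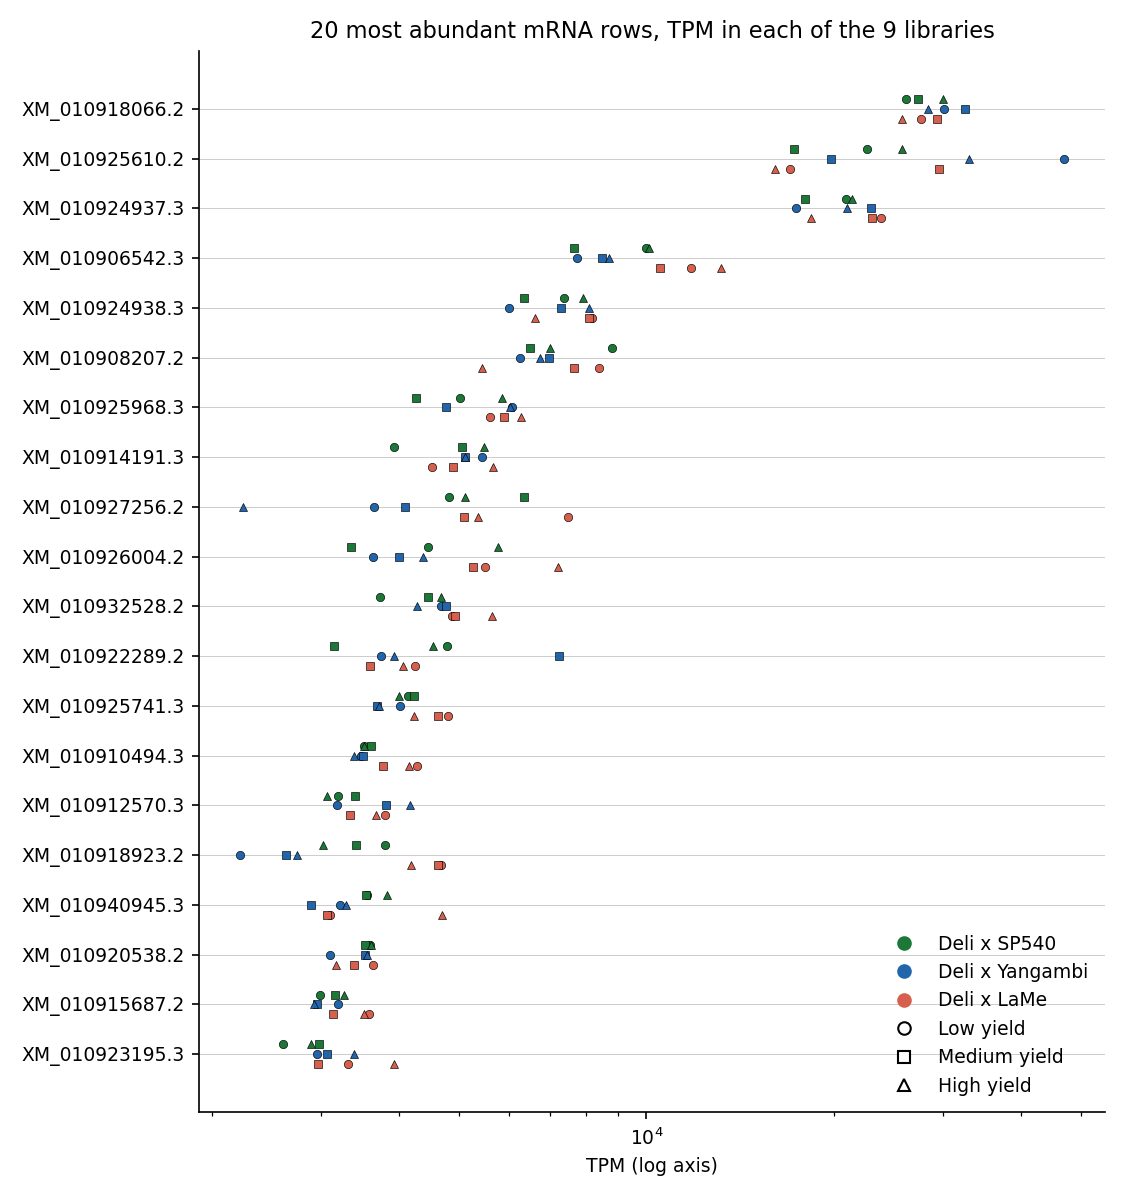
TPM (log axis) of the 20 most abundant mRNA rows in each of the 9 libraries; color marks the population and shape the yield class. XM_010925610.2 spreads from 16075 to 46866 TPM, while XM_010918066.2 stays between 25728 and 32548 TPM.

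After the 3 leading rows the level dropped to under 10000 TPM. XM_010906542.3 (LOC105032174) was the fifth most abundant row of any kind in every library and had 9978, 7634 and 10076 TPM in SP540, 7730.3, 8485 and 8719.6 TPM in Yangambi, and 11788, 10520.3 and 13155 TPM in LaMe. All its LaMe values were above all its SP540 and Yangambi values. XM_010908207.2 (LOC105033414) had 8791, 6485 and 6988 TPM in SP540, 6268, 6960.4 and 6750.2 TPM in Yangambi, and 8399.8, 7655 and 5429 TPM in LaMe, and here the low- and high-yield LaMe libraries lay near the top and at the bottom of the range. XM_010925968.3 (LOC105047160) averaged 5533 ± 697 TPM and XM_010914191.3 (LOC105038393) 5018 ± 533 TPM (SD, n = 9), with CVs of 12.6% and 10.6%. In both, the populations overlapped.

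Among the next rows by level, some were even and others had 1 population or 1 library that stood off. XM_010927256.2 (LOC105048068) had 4815, 6348 and 5099 TPM in SP540, 3648, 4082 and 2246 TPM in Yangambi, and 7466, 5092 and 5351 TPM in LaMe, so every Yangambi value was under every SP540 and LaMe value. XM_010926004.2 (LOC105047188) had 4451, 3347 and 5774 TPM in SP540, 3632, 3995 and 4366 TPM in Yangambi, and 5493, 5255 and 7193 TPM in LaMe, and the high-yield library was the highest of its population in all 3 populations. XM_010922289.2 (LOC105044409) reached 7244 TPM in the medium-yield Yangambi library, whereas its other 8 libraries lay between 3148 and 4784 TPM. XM_010940945.3 (LOC105058134) likewise had its highest value, 4689 TPM, in 1 library, high-yield LaMe, and a lowest value of 2883 TPM. The more even ones at this level included XM_010912570.3 (unpaired, 3514 ± 370 TPM), XM_010920538.2 (LOC105043122, 3452 ± 195 TPM), XM_010915687.2 (LOC105039517, 3189 ± 234 TPM) and XM_010923195.3 (LOC105045035, 3118 ± 380 TPM; all SD, n = 9). Their CVs were 10.5%, 5.65%, 7.33% and 12.2%.

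There were 2 genes with a pair of rows each in the set. LOC105046370 held XM_010924937.3 and XM_010924938.3. XM_010924938.3 was at 7359.6, 6345 and 7918 TPM in SP540, 6012, 7294 and 8074 TPM in Yangambi, and 8175, 8084 and 6625 TPM in LaMe. Their TPM ratio stayed between 2.60 and 3.15 in all 9 libraries, and their sum, 28096 ± 3106 TPM (SD, n = 9), would rank close to the leading row. LOC105055554 held XM_010937392.3, at 1108, 1850.1 and 1988 TPM in SP540, 1926, 1764 and 1347 TPM in Yangambi, and 1145, 790.0 and 2208 TPM in LaMe, and XM_010937399.2, at 669.8, 949.8 and 2068 TPM in SP540, 2512, 1407 and 1312 TPM in Yangambi, and 984.8, 817.7 and 3261 TPM in LaMe. Here the ratio ran from 0.677 to 1.95 and the sum from 1607.7 to 5469.7 TPM. The division of reads between rows of 1 gene is an estimate of kallisto, the quantification tool, so the single-row values of these genes are uncertain.

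The abundant mRNAs were steadier between libraries than the rows of the table in general. Their median CV over the 9 libraries was 14.1%, against 37.5% over all 30576 rows tested (at least 1 TPM in at least 3 libraries, a filter that all 89 rows passed). Most of that gap followed the level itself: among predicted mRNA rows tested, the median CV was 70.3% at a mean of 1 to 3 TPM, 38.2% at 3 to 10 TPM, 21.3% at 10 to 30 TPM, 16.2% at 30 to 100 TPM, 15.4% at 100 to 300 TPM and 16.1% at 300 to 1000 TPM. From 30 TPM upward the medians thus differed little. Within the set, 22 rows had a CV under 10%, 39 between 10 and 20%, 18 between 20 and 30%, and 10 of at least 30%. The highest library was under 1.5 times the lowest in 40 rows and at least 2 times the lowest in 24 rows, with a median of 1.53 times.

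**Figure D3:**
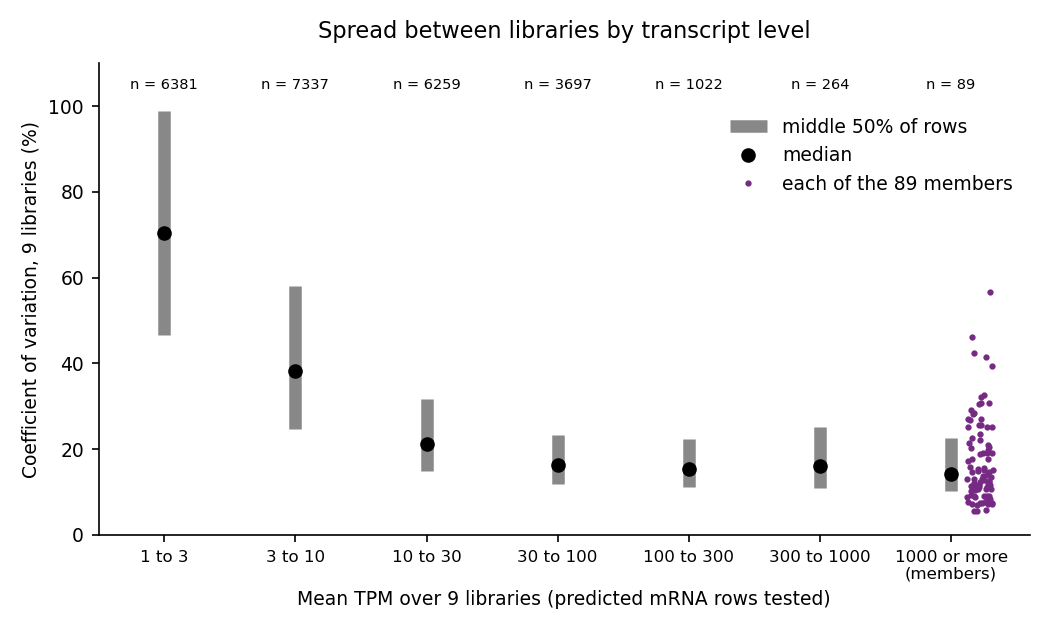
Coefficient of variation over the 9 libraries (%) by mean TPM, for predicted mRNA rows tested; black points are medians, grey bars the middle 50% of rows, and purple points the 89 abundant rows. The median falls from 70.3% at 1 to 3 TPM to 16.2% at 30 to 100 TPM and is 14.1% for the 89 rows, which range from 5.52% to 56.6%.

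The 5 steadiest rows lay close to their mean in every library. XM_010914758.3 (LOC105038844) had the lowest CV, 5.52%, with 2594, 2658 and 2869 TPM in SP540, 3021, 2959.6 and 2829 TPM in Yangambi, and 3029.5, 2919.6 and 3014 TPM in LaMe. XM_010920538.2, described above, followed with 5.65%, its lowest library at 3098 TPM and its highest at 3628 TPM. XM_029265047.1 (LOC105046752) ran from 2707 to 3286 TPM (CV 5.92%), XM_010921730.3 (LOC105043976) from 872.4 to 1090.3 TPM (6.90%) and XM_010939152.3 (LOC105056825) from 1532 to 1870.3 TPM (7.13%).

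The 5 most variable rows included the second leading row, XM_010925610.2, and 4 rows of lower level. XM_010937399.2 (LOC105055554, values above) had the highest CV, 56.6%, with its highest value in the high-yield LaMe library. The summed TPM of its gene had a CV of 41.6%, so this rank rests on the uncertain division of reads between the rows. XM_019851478.2 (LOC105047151) had 1378, 2186 and 1486 TPM in SP540, 1032, 688.5 and 538.5 TPM in Yangambi, and 2154, 899.3 and 1125 TPM in LaMe, a CV of 46.1%, and its 2 lowest values were Yangambi libraries. XM_010928271.3 (LOC105048817) had 2125, 1804 and 995.9 TPM in SP540, 1544, 2941 and 882.1 TPM in Yangambi, and 3204, 1399 and 2101 TPM in LaMe, a CV of 42.3%, and no population or yield class of its own at either end. XM_010933056.2 (LOC105052291) had 1521, 1191 and 1379.7 TPM in SP540, 1463, 2399 and 2169 TPM in Yangambi, and 774.8, 780.7 and 898.4 TPM in LaMe, a CV of 41.4%, and its 3 lowest values were the LaMe libraries. The remaining 5 rows with a CV of at least 30%, named after their values were seen, were XM_010945645.2 (unpaired, 493.6 to 1853 TPM), XM_010926120.1 (LOC105047265, 1641 to 4072 TPM), XM_010937392.3, XM_010927256.2 and XM_010934437.2 (LOC105053337, 1175 to 2597 TPM).

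Population accounted for more of this spread than yield class did. In an additive model of log2(TPM + 1) the median share of variance was 34.5% for population, 15.1% for yield class and 46.1% for the rest, against 29.5%, 16.9% and 44.0% over all rows tested. The population share was above the yield share in 63 of the 89 rows and in 62.5% of all rows. Leaving the sign aside, the median log2 difference over the 89 rows was 0.18 for Yangambi against LaMe. It was 0.15 for SP540 against LaMe and 0.15 for SP540 against Yangambi. The same medians over all rows were 0.31, 0.27 and 0.27. With the sign kept, rows going up and rows going down offset each other. The signed median over the 89 rows was -0.11 for Yangambi minus LaMe, -0.11 for SP540 minus LaMe and -0.01 for SP540 minus Yangambi. Over all rows the signed medians were 0.02, 0.08 and 0.07. In Yangambi 29 rows were higher and 60 lower than in LaMe, and in SP540 27 were higher and 62 lower than in LaMe, whereas 51.9% and 59.4% of all rows were higher in those comparisons. Both comparisons share the LaMe libraries. Between SP540 and Yangambi, 43 rows were higher and 46 lower in SP540. The size of these counts depended on the scale, and so did the direction between SP540 and Yangambi. Shares over all rows were not computed on the other scales. After libraries were rescaled by their median ratio, 28 rows were higher and 61 lower in Yangambi than in LaMe (median -0.12), 17 higher and 72 lower in SP540 than in LaMe (median -0.16), and 38 higher and 51 lower in SP540 than in Yangambi (median -0.04). With each row expressed as a share of the 89 rows' own total, 36 were higher and 53 lower in Yangambi than in LaMe (median -0.06), 43 higher and 46 lower in SP540 than in LaMe (median -0.02), and 50 higher and 39 lower in SP540 than in Yangambi (median 0.04).

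Differences were tested with limma, a linear model fitted to every row with a shared estimate of the spread, on log2(TPM + 1) with population and yield class as terms, and p-values received Benjamini-Hochberg adjustment across the 30576 rows. None of the 89 rows reached an adjusted p of 0.05 in any population comparison. The share of all rows that did was 0.327% (100 rows) for any difference among populations, 0.383% (117 rows) for Yangambi against LaMe, 0.242% (74 rows) for SP540 against LaMe and 0.00327% (1 row) for SP540 against Yangambi. At those shares less than 1 of 89 rows would be called, so a count of 0 is near the background. The background itself was unstable. With 1 library left out it was 20 to 77 rows for Yangambi against LaMe, 24 to 52 for SP540 against LaMe and 17 to 61 for any difference among populations, each lowest without the high-yield LaMe library, and 0 to 11 for SP540 against Yangambi. The median 95% interval of a difference was ± 0.33 on the log2 scale for the 89 rows and ± 0.81 over all rows. These intervals are not adjusted over the rows, and a call depended on the difference relative to its standard error (SE). Rows 0.64, 0.83, 1.18 and 1.27 apart on the log2 scale, described below, were not called.

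At an unadjusted limma p under 0.05, 17 of the 89 rows (19.1%) differed among populations, against 12.7% of all rows. In Yangambi against LaMe, 4 rows were higher in Yangambi (4.49%, background 7.53%) and 15 lower (16.9%, background 6.22%). In SP540 against LaMe, 2 rows were higher in SP540 (2.25%, background 6.73%) and 8 lower (8.99%, background 3.32%). In SP540 against Yangambi, 7 rows were higher in SP540 (7.87%, background 5.99%) and 4 lower (4.49%, background 3.56%). The higher side was thus below the background and the lower side above it in both comparisons with LaMe; whether the list differs from other rows was not tested.

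The smallest p-values of single contrasts among the 89 rows were found between Yangambi and LaMe. XM_010933056.2 averaged 2010.5 ± 487 TPM in Yangambi and 818.0 ± 69.7 TPM in LaMe (SD, n = 3 each), a log2 difference of 1.27 (SE 0.193) with a limma adjusted p of 0.0592. It was higher in Yangambi in 3 of 3 yield classes. XM_010911822.3 (LOC105036083) was at 1381, 1534 and 1292 TPM in Yangambi and 906.0, 835.6 and 944.6 TPM in LaMe, which is 0.64 on the log2 scale (SE 0.113, limma adjusted p = 0.0765). In the opposite direction, XM_010918923.2 (LOC105041860) was at 2223, 2636 and 2745 TPM in Yangambi and 4669, 4622 and 4186 TPM in LaMe, a difference of -0.83 (SE 0.135, limma adjusted p = 0.0688). XM_010932928.3 (LOC105052189) was at 556.5, 703.6 and 810.2 TPM in Yangambi and 1282, 1119 and 1215 TPM in LaMe, a difference of -0.82 (SE 0.180, limma adjusted p = 0.135). In none of these 4 rows did the groups overlap, and none passed the threshold. Without the low-yield Yangambi library, XM_010933056.2 alone among the 89 rows passed, with a difference of 1.50 and an adjusted p of 0.0405, where 64 of all 30576 rows were called. With yield class left out of the limma model all 4 rows passed, with adjusted p-values of 0.0169 to 0.0485, where 389 of all rows were called.

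For any difference among the 3 populations, XM_010933056.2 and XM_010918923.2 had the smallest p-values of the 89 rows, with limma adjusted p-values of 0.101 and 0.126. Between SP540 and LaMe the leading rows were partly the same. XM_010911822.3 was at 1255, 1279 and 1233 TPM in SP540, a log2 difference from LaMe of 0.49 (SE 0.113, limma adjusted p = 0.213), and XM_010933056.2, at 1364 ± 166 TPM in SP540 (SD, n = 3), differed from LaMe by 0.73 (SE 0.193, limma adjusted p = 0.271). On the lower side, XM_010923354.3 (LOC105045181) was at 2336, 1722 and 1723 TPM in SP540 and 3524, 3207 and 3246 TPM in LaMe, a difference of -0.80 (SE 0.156, limma adjusted p = 0.147). XM_010913419.3 (LOC105037794) was at 1194, 1029.8 and 1137 TPM in SP540 and 1636, 1352 and 1465 TPM in LaMe, a difference of -0.40 (SE 0.101, limma adjusted p = 0.254). All 3 pairs of libraries matched by yield class went the same way in each of these 4 rows, yet none passed.

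Of the population comparisons, that of SP540 with Yangambi called the fewest rows. XM_010932928.3 was at 1266, 1322 and 1003 TPM in SP540 and 556.5, 703.6 and 810.2 TPM in Yangambi, a difference of 0.80 on the log2 scale (SE 0.180, limma adjusted p = 0.281). XM_019851478.2 averaged 1683 ± 438 TPM in SP540 and 752.8 ± 253 TPM in Yangambi (SD, n = 3 each), a difference of 1.18 (SE 0.324, limma adjusted p = 0.363). Lower in SP540 were XM_010907813.3 (LOC105033138), at 1033, 1020.3 and 1109 TPM in SP540 and 1153, 1439 and 1355 TPM in Yangambi, with a difference of -0.31 (SE 0.112, limma adjusted p = 0.468), and XM_010933056.2, with -0.54 (SE 0.193, limma adjusted p = 0.472).

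A second description counted rows in which the 3 libraries of 1 population lay wholly apart from the other 6. LaMe was above all SP540 and Yangambi libraries in 9 of the 89 rows (10.1%), against 2.63% of all rows, and below them in 2 rows (2.25%), against 4.27%. Yangambi was above the other 6 libraries in 2 rows (background 2.64%) and below them in 5 (5.62%, background 3.32%). SP540 was above in 1 row (background 2.90%) and below in 2 (background 1.04%). Altogether 18 rows (20.2%, background 15.5%), chosen for naming after their values were seen, were apart in some population. The count of 9 was unchanged after libraries were rescaled by their median ratio, but fell to 5 when each row was expressed as a share of the 89 rows' own total, which was higher on average in LaMe. Under the same alternatives the count for Yangambi above the rest lay between 0 and 3, and that for SP540 below the rest between 2 and 5. The shares over all rows were computed on the deposited TPM only, so the rescaled counts have no background beside them. The larger share of LaMe libraries held by the 86 lower rows, given above, moves with this count; its part in the count was not tested.

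The 9 rows with LaMe above the rest ran from the fourth leading row down to the lower end of the set. XM_010906542.3 is given above. XM_010932528.2 (LOC105051883) was at 3724, 4459 and 4675 TPM in SP540, 4678, 4753 and 4276 TPM in Yangambi, and 4871, 4918 and 5637 TPM in LaMe. XM_010925741.3 (LOC105046981) was at 4128, 4224 and 3998 TPM in SP540, 4015, 3680.4 and 3719 TPM in Yangambi, and 4801, 4623 and 4229 TPM in LaMe, so that the highest SP540 library lay just under the lowest LaMe library. XM_010910494.3 (LOC105035084) was at 3514, 3602 and 3511 TPM in SP540, 3472, 3504 and 3381 TPM in Yangambi, and 4278, 3768 and 4156 TPM in LaMe. Its Yangambi libraries were also all below its SP540 libraries, the highest of them only just. XM_010923354.3 had 2419, 1588 and 2510.4 TPM in Yangambi besides the SP540 and LaMe values above. XM_010912640.3 (unpaired) was at 1643, 1306 and 1487 TPM in SP540, 1269.7, 1438 and 1457 TPM in Yangambi, and 2331, 2026 and 1701 TPM in LaMe. XM_029268670.1 (LOC105059117) was at 1394, 1273 and 1156 TPM in SP540, 1294, 1164 and 1385 TPM in Yangambi, and 1774, 1546 and 1679 TPM in LaMe. XM_010918923.2 and XM_010913419.3 completed the group, and in XM_010918923.2 the SP540 libraries, at 3803, 3411 and 3018 TPM, lay between those of Yangambi and LaMe without overlap. The 2 rows with LaMe below the rest were XM_010933056.2 and XM_010911822.3.

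**Figure D4:**
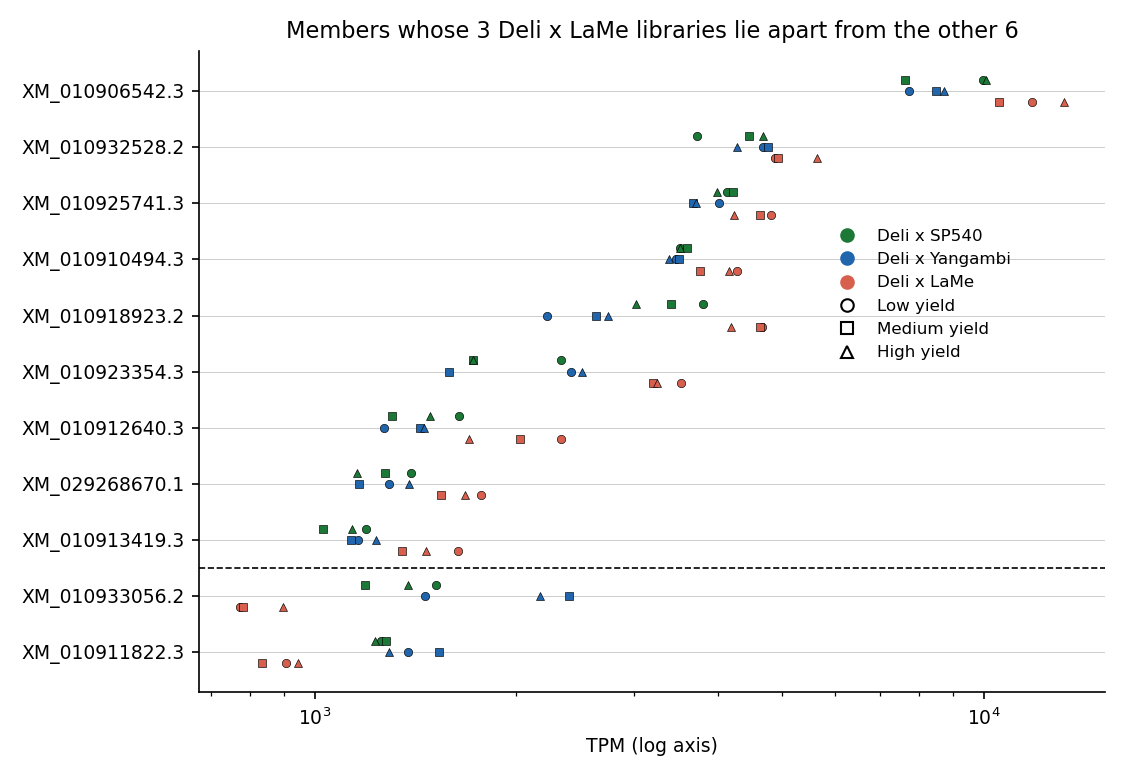
TPM (log axis) of the 11 abundant mRNA rows whose 3 LaMe libraries did not overlap the other 6; color marks the population and shape the yield class. Above the dashed line are the 9 rows with LaMe above the rest, and below it the 2 rows with LaMe below, XM_010933056.2 and XM_010911822.3.

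Yangambi stood apart on the low side in XM_010927256.2, XM_010910494.3, XM_010918923.2, XM_010932928.3 and XM_010929202.3. In XM_010929202.3 (LOC105049532) the values were 1717, 1999 and 1761 TPM in SP540, 1367, 1481 and 1431 TPM in Yangambi, and 1886, 1743 and 2599 TPM in LaMe. On the high side it stood apart in XM_010911822.3 and in XM_010929212.3 (LOC105049540), which had 853.3, 916.8 and 1093 TPM in SP540, 1094, 1334 and 1119 TPM in Yangambi, and 1031, 1023 and 847.8 TPM in LaMe. In the latter row the lowest Yangambi library lay only just above the highest SP540 library. The SP540 libraries were the highest in XM_010940306.3 (LOC105057640), with 1229, 1288 and 1344 TPM in SP540, 1040.4, 1206 and 1179 TPM in Yangambi, and 1177, 1121 and 1220.0 TPM in LaMe. They were the lowest in XM_010936880.3 (LOC105055143), with 1574, 1665 and 1672 TPM in SP540, 1943, 1858 and 2321 TPM in Yangambi, and 2192, 2032 and 1958 TPM in LaMe, and in XM_010907813.3, whose LaMe libraries were at 1264, 1266 and 1224 TPM.

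None of the 89 rows passed the same limma test for yield class, and no row of the whole table reached an adjusted p of 0.05 for yield (0% of 30576 rows in the joint test and in each of the 3 pairwise comparisons). At an unadjusted p under 0.05, 3 of the 89 rows differed among yield classes (3.37%, background 4.21%), 6 between high and low yield (6.74%, background 4.66%), 2 between medium and low yield (2.25%, background 3.47%) and 3 between high and medium yield (3.37%, background 4.40%). Those shares were near the background. The signed median log2 difference over the 89 rows was -0.01 for high minus low yield, -0.01 for medium minus low and -0.02 for high minus medium. Leaving the sign aside, these medians were 0.13, 0.09 and 0.11, against 0.22, 0.20 and 0.22 over all rows. In only 1 row did the 3 libraries of a yield class lie apart from the other 6 (1.12%, background 4.55%), namely XM_010933045.2 (LOC105052279).

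XM_010933045.2 was at 795.3, 1152 and 937.4 TPM in the low-yield SP540, Yangambi and LaMe libraries, 752.6, 936.0 and 960.5 TPM in the medium-yield and 1167, 1214 and 1227 TPM in the high-yield libraries of the same populations. Of the 89 rows it had the smallest p in the joint yield test (unadjusted 0.0197, adjusted 1.0 by limma), and the log2 difference was 0.45 (SE 0.124) between high and medium yield and 0.34 (SE 0.124) between high and low yield, with limma adjusted p-values of 1.0 and 0.987. XM_010926004.2 was at 4451, 3632 and 5493 TPM in the low-yield, 3347, 3995 and 5255 TPM in the medium-yield and 5774, 4366 and 7193 TPM in the high-yield libraries. The difference was 0.46 for high minus medium and 0.34 for high minus low yield (SE 0.140 each, limma adjusted p = 1.0 and 0.987). Every population had its highest value of this row at high yield, and of its variance population took 53.1% and yield class 34.1%.

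On the lower side, XM_010933210.3 (LOC105052408) averaged 1381 ± 102 TPM at high and 2031 ± 429 TPM at low yield, and XM_019846147.2 (LOC105032043) 1590.1 ± 79.1 TPM at high and 2137 ± 434 TPM at low yield (SD, n = 3 each). The log2 differences were -0.54 (SE 0.157) and -0.41 (SE 0.150), both with a limma adjusted p of 0.987. Between high and medium yield the lowest p-values on that side belonged to XM_010909002.3 (LOC105033990), with -0.22 (SE 0.111), and XM_010929470.2 (LOC105049730), with -0.47 (SE 0.241), both at a limma adjusted p of 1.0. Between medium and low yield, XM_010908185.3 (LOC105033408) was at 1804, 1686 and 1814 TPM at medium and 2018, 2039.6 and 2248 TPM at low yield in SP540, Yangambi and LaMe, a difference of -0.25 (SE 0.0986). XM_010923354.3 differed by -0.39 (SE 0.156), XM_010928282.3 (unpaired) by 0.17 (SE 0.121) and XM_010932715.2 (unpaired) by 0.24 (SE 0.182), and the limma adjusted p was 1.0 for all 4. None of these differences passed.

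Beside these tests, 9 of the rows were seen to vary together across the libraries. They were found after the values were seen, by joining rows whose log2 values correlated with a mean r of at least 0.7, so they are described without a test. Over the 9 libraries their pairwise r had a median of 0.837 and a lowest value of 0.504, against a median of 0.0882 over all 3916 pairs of the 89 rows; the points share libraries and the fixed TPM total. The 9 rows were XM_010926120.1, XM_010935330.3 (LOC105053974), XM_010923382.3 (unpaired), XM_010910975.2 (LOC105035427), XM_019846147.2, XM_010933210.3, XM_029264913.1 (unpaired), XM_010934445.2 (LOC105053346) and XM_010929470.2. Their summed level was 23649, 16786 and 13480 TPM in the low-, medium- and high-yield SP540 libraries. In Yangambi it was 12874, 14646 and 15736 TPM, and in LaMe 22250, 19568 and 14987 TPM. In SP540 and in LaMe all 9 rows stepped down from low through medium to high yield. In Yangambi none stepped down, 5 stepped up, and in 2 the low-yield library was above the high-yield library. Because the rows were joined for alike profiles, the 9 are not separate observations, and their high r follows from that choice. The share of all rows that stepped this way is not given here, so no trend with yield is drawn from the 9.

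XM_010926120.1, the most abundant of these rows, showed the pattern with 3617, 2574 and 2014 TPM in SP540, 1641, 1939 and 2481 TPM in Yangambi, and 4072, 3306 and 2049.9 TPM in LaMe. XM_010935330.3 followed it closely (r = 0.975 over 9 libraries), with 3441, 2455 and 1794 TPM in SP540, 1613, 1816 and 2343 TPM in Yangambi, and 3171, 2793 and 2049 TPM in LaMe. XM_010910975.2 was highest in the low-yield SP540 library, at 3508 TPM, and at 2319, 2306 and 2068 TPM in LaMe, where the step was small. XM_010929470.2, the least abundant, had 1706, 1124 and 761.2 TPM in SP540, 817.4, 1176 and 909.6 TPM in Yangambi, and 1486, 1277 and 907.4 TPM in LaMe. The low-yield libraries of SP540 and LaMe were thus the highest for the group, the low-yield Yangambi library was the lowest, and each of these values is 1 library. None of the 89 rows stepped in 1 direction with yield in every population. The share of all rows that did so is not given here, so no result about the set is drawn from this count.

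**Figure D5:**
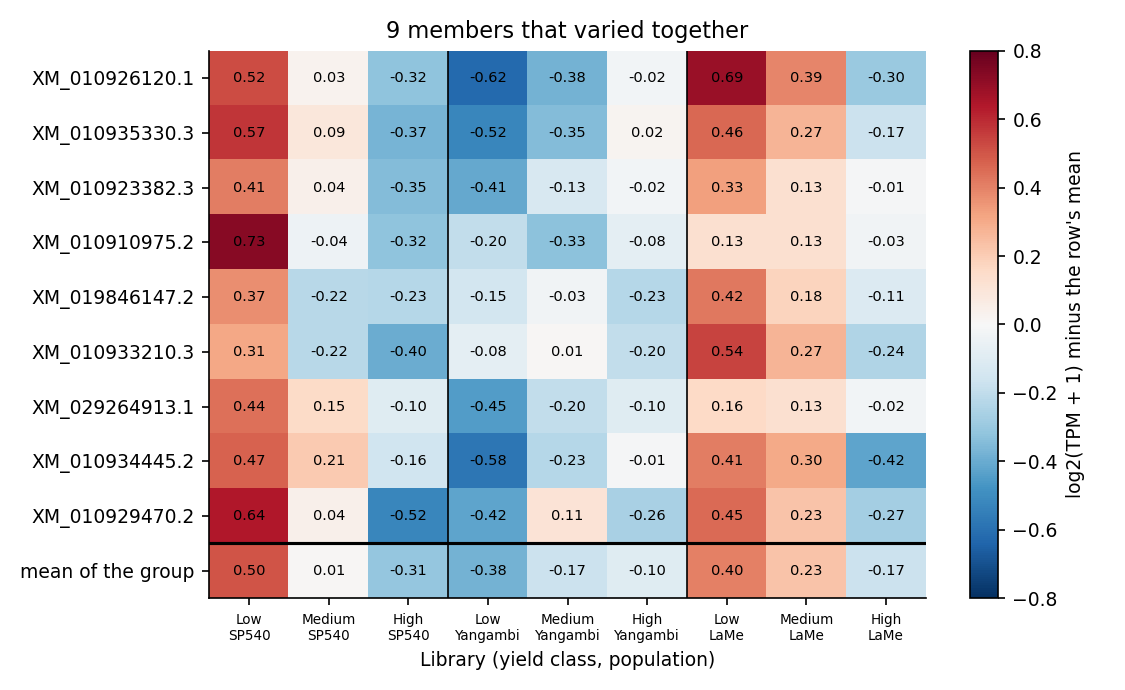
Log2(TPM + 1) of 9 abundant mRNA rows that varied together, as the deviation from each row's mean over the 9 libraries (columns, by population and yield class), with the mean of the 9 rows at the bottom. The mean is 0.50, 0.01 and -0.31 at low, medium and high yield in SP540, -0.38, -0.17 and -0.10 in Yangambi, and 0.40, 0.23 and -0.17 in LaMe.

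Across all 89 rows the libraries resembled each other closely. Pearson's r of the log2 levels, taken across the 89 rows, averaged 0.938 (0.906 to 0.974) for the 9 pairs of libraries of 1 population, 0.919 (0.861 to 0.962) for the 9 pairs of 1 yield class and 0.918 (0.885 to 0.964) for the 18 pairs sharing neither. The nearest library was one of the same population for 5 of the 9 libraries and one of the same yield class for 2. The same values over all rows are not given here, so nothing particular to the 89 rows is drawn from them. Of each library's own 89 most abundant predicted mRNA rows, between 77 (low-yield Yangambi) and 86 (high-yield SP540) were in the set.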

How the data were processed

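Leaf RNA was sequenced in 9 oil palm libraries, 1 for each combination of 3 populations and 3 yield classes, grouped by the sample titles. The authors' tools, per the submitters' processing notes, were fastp, kallisto and DESeq2, without versions. The transcript set was not given in the sources used here, and neither was the genome build. The authors deposited 1 table of transcript rows; it is named as counts, but its values are TPM, since every deposited column sums to 1000000 within rounding. Depth is therefore unknown and no count test was used. A RefSeq gene table of assembly EG11, joined with accession versions ignored, served for names and gene order only.

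The members, lists and tests were chosen with earlier results of these data known. Values were tested as log2(TPM + 1), a scale that understates changes at low TPM, with limma 3.58.1 in R 4.3.3 (trended and robust prior variance, statmod 1.5.0), in a model of population plus yield class, on the 30576 rows that reached 1 TPM in 3 or more libraries. Two-sided p-values received Benjamini-Hochberg adjustment across those rows, with a threshold of 0.05. An interaction could not be fitted with 1 library per combination. Library shares were tested by exact permutation within the levels of the other factor, over all 216 arrangements (Python 3.11.15). Rows that varied together were joined with scipy 1.17.1. The script was tested on simulated data. Named by rule were the 20 leading rows, the rows with the smallest p-values per direction where none passed (2 each), the 5 highest and 5 lowest CVs, and the 3 rows on either side of the limit of 1000 TPM.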

Additional observations from a re-analysis of the deposited data

How the results depend on the processing

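The alternatives were pseudocounts of 0.1 and 5 TPM, no filter on low values, TPM summed per gene, other scalings and prior variances, no covariate, only the 6 libraries compared, and each library left out in turn. Of 432 recomputed values of 24 named results, 426 kept their direction and their side of the threshold, 6 newly passed it and 0 reversed. The 24 were picked for the smallest p-values in each direction, which made a reversal unlikely from the start. All 6 new passes were in Yangambi against LaMe. The yield results started at limma adjusted p-values of 0.987 or above, far from the threshold. For any difference among populations, 0 of the 89 rows were called with yield class as a term and 3 without it (XM_010933056.2, XM_010918923.2 and XM_010911822.3; adjusted p of 0.0332 to 0.0342). For Yangambi against LaMe the count of 0 became 4 without yield class as a term (these 3 and XM_010932928.3) and 1 with TPM summed per gene (XM_010933056.2, adjusted p = 0.0480), and lay between 0 and 1 when each library was left out (1 without low-yield Yangambi). Over its 18 alternatives, XM_010933056.2 had an adjusted p of 0.0169 to 0.238. The cause was not tested. Over all rows, calls for Yangambi against LaMe numbered 117, against 389 without the yield term, 46 without a filter, 176 per gene and 20 to 77 with each library left out. For any population difference the count was 100, against 315 without the yield term and 17 to 61 with each library left out.

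The counts of rows lying apart were chosen after seeing the data. As shares of the 89 rows' total, LaMe above the rest moved from 9 to 5 and Yangambi above the rest from 2 to 0. After median-ratio scaling, SP540 below the rest moved from 2 to 5. Shares over all rows were not computed on these scales. Rows higher in SP540 than in LaMe numbered 27 as deposited, 17 after median-ratio scaling and 43 as shares of that total, also added after seeing the data. The difference in member share, SP540 minus LaMe, was -1.72 points, and -2.30 to -0.95 over the alternatives; high minus low yield gave -0.68, and -1.17 to -0.12. Libraries were matched across populations by yield class, and across yield classes by population, through the terms of the model; the labels give no replicate numbers for a further block. Unknown depth, 3 libraries per group and estimated division of reads between rows of 1 gene limit these values.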
